A study of Enchytraeus crypticus with 60 samples.

Results

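The 100 gene probes described here had a lower level with silver particles than with silver nitrate in the soil worm Enchytraeus crypticus. A level is the log2 of a probe's processed signal minus the median of its array, taken over the 23179 of 43750 gene probes (53.0%) that stood positive and significant above background on all 60 arrays. For each kept probe, the group mean with Ag-NPs PVP-Coated, and that with Ag-NPs Non-Coated, was set against AgNO3 at the same dose and day, which gave 8 differences. All 8 were below 0 in 1011 probes (4.36% of those kept), and the members are the 100 of these with the lowest mean difference. The members were thus selected on measured levels of these arrays, and every difference between these particles and AgNO3 below is a description with no test.

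Each array measured the pooled RNA of 20 whole adult worms with a developed clitellum, kept unfed in the natural standard soil LUFA for 3 or 7 d, and each of the 20 groups had 3 arrays of separate pools. Soil was spiked with the salt AgNO3, with nanoparticles that carried a polyvinylpyrrolidone coat (Ag-NPs PVP-Coated) or none (Ag-NPs Non-Coated), or with the reference nanoparticle Ag NM300K. Each was given at the concentrations that lower reproduction by 20% (EC20) and 50% (EC50), at both days. Un-spiked soil was the control for the salt and for both the PVP-Coated and the Non-Coated material. That of Ag NM300K was soil given its dispersant, which contained a Tween detergent, and is called dispersant soil here. Both controls were kept for 3 and 7 d, and no strain or genotype was stated for any group. Doses were matched by their effect on reproduction and not by silver, so the salt and the particles compared with it held different amounts of silver.

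As background, silver nitrate dissolves and gives silver ions directly, whereas silver particles release ions as their surface oxidises. Silver ions bind to thiol groups of proteins, and animals commonly answer metal ions with metal-binding and antioxidant proteins. Enchytraeids live in the pore spaces of soil and meet dissolved silver through the body wall and particles through the gut as well. Because whole bodies were pooled, fewer cells of a type and less RNA per cell cannot be told apart.

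The array was built from assembled contigs and single sequencing reads of this species, and a probe is named here by its number and the identifier of its contig or read. Gene names and probe sequences were not used here, so no function is given for any member, and the labelled tissue, the whole body, was not checked against marker genes. The members held 100 different identifiers, of which 61 were contigs and 39 single reads. Of all kept probes, 48.2% were contigs. Members were dim more often: 52 of 100 were well above background on all 60 arrays, against 71.8% of the kept probes. Their pooled standard deviation within groups had a median of 0.50 on the log2 scale, against 0.36 for all kept probes, and it ran from 0.28 to 1.06 between members. Array medians of the processed signal lay between 10.6 and 31.4, no gene spot was saturated, and 2 of the 6000 member spots carried an outlier flag. These 2 stayed in the levels and were set missing in the tests. The arrays lay on 16 slides scanned on 4 days, and each slide held arrays of 2 to 4 groups.

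The mean of the 8 differences ran from -2.15 to -0.52 on the log2 scale over the members, with a median of -0.61, a 1.52-fold lower signal with particles. It was below -1 in 6 members. The last members inside the limit of 100 were CUST_23543 (contig07998) at -0.524 and CUST_19349 (contig11881) at -0.522, and the first probes outside it were CUST_16271 (contig14701) at -0.521 and CUST_6833 (contig00751) at -0.520. The list thus ends in a continuum. The list was also sensitive to processing, with 27 of its probes selected again after normexp background correction and 29 with the slide as a fixed block. In all, 247 kept probes had a mean difference at or below that of the last member, and those left out had at least 1 of the 8 differences at or above 0.

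By dose and day, the members' median difference from AgNO3 at 3 d was -0.59 with coated and -0.83 with non-coated particles at EC20. It was -0.72 and -0.49 at EC50 in the same order. At 7 d the medians were -0.47 and -0.51 at EC20, and -0.60 and -0.52 at EC50. All 6 particle arrays lay below all 3 AgNO3 arrays in 24 members for EC20 at 3 d (5.04% of all kept probes), in 21 for EC50 at 3 d (2.83%), in 12 for EC20 at 7 d (2.19%) and in 19 for EC50 at 7 d (2.19%). The rule used these arrays, so nothing is read from these counts. They give the overlap between single arrays: in most members, some particle array reached into the range of AgNO3.

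The mean over the 100 members on each array shows on which side of the controls the groups lay. At 3 d the un-spiked arrays read -0.26, 0.18 and 0.07. AgNO3 read 0.29, -0.13 and 0.17 at EC20 and 0.03, -0.39 and 0.33 at EC50. The AgNO3 arrays thus spread around the un-spiked ones. The coated particles read -0.41, -0.64 and -0.46 at EC20 and -0.70, -0.72 and -0.87 at EC50. The non-coated particles read -0.83, -0.69 and -0.67 at EC20 and -0.41, -0.70 and -0.73 at EC50, and every particle array at 3 d lay below every un-spiked and AgNO3 array of that day.

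**Figure D1:**
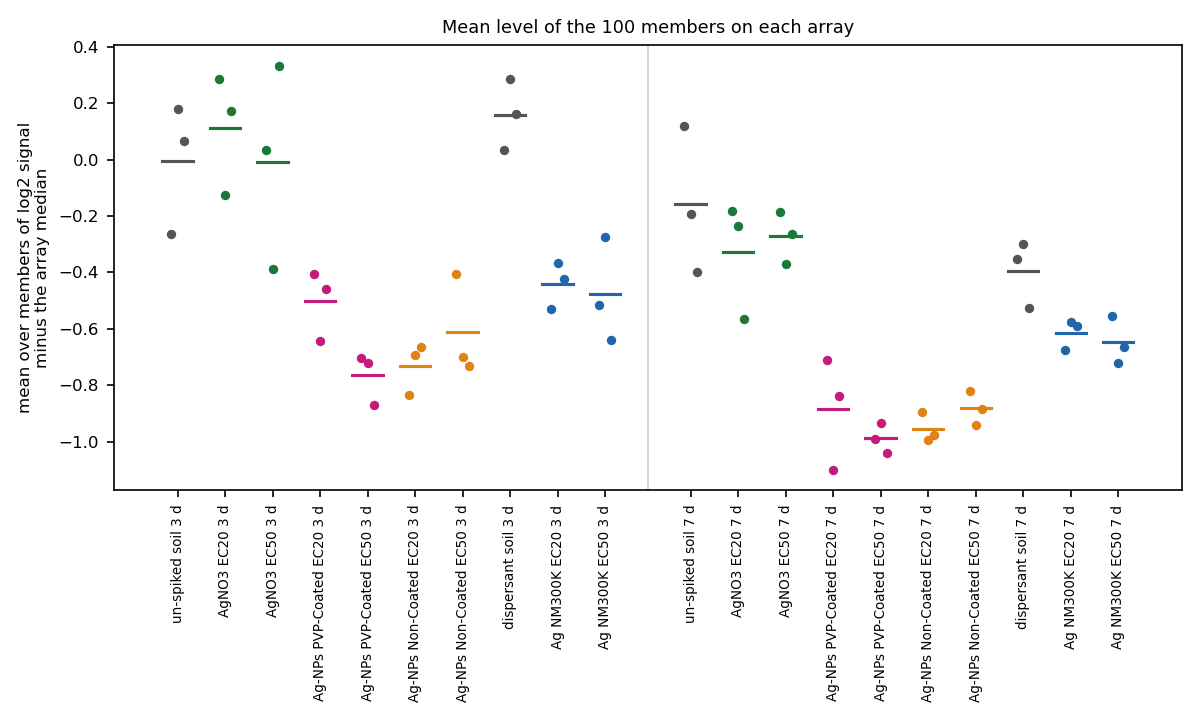
Mean over the 100 members of the log2 signal minus the array median (vertical axis) on each of 60 arrays (points) by group (horizontal axis), with a bar for the mean of 3 arrays and 3 d left of the line, 7 d right of it. AgNO3 groups lie between -0.33 and 0.11, near un-spiked soil, while the 8 groups with coated or non-coated particles, which the rule chose to be low, lie between -0.99 and -0.50 and Ag NM300K between -0.65 and -0.44.

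At 7 d all group means lay lower than at 3 d. The un-spiked arrays read 0.12, -0.19 and -0.40, and AgNO3 read -0.18, -0.23 and -0.56 at EC20 and -0.18, -0.37 and -0.26 at EC50. The 12 particle arrays of that day lay between -1.10 and -0.71. The AgNO3 and un-spiked arrays overlapped, and the particle arrays lay below both.

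Arrays whose differences the rule did not use showed the members lower on average with Ag NM300K at 3 d and less clearly at 7 d. At 3 d dispersant soil read 0.03, 0.285 and 0.16, and Ag NM300K read -0.53, -0.365 and -0.42 at EC20 and -0.52, -0.28 and -0.64 at EC50. At 7 d dispersant soil read -0.35, -0.30 and -0.53, and Ag NM300K read -0.68, -0.58 and -0.59 at EC20 and -0.55, -0.72 and -0.66 at EC50. Every Ag NM300K array lay below every dispersant array of 3 d, also without CUST_31050, the member with the lowest mean difference. At 7 d the groups were apart with all 100 members but overlapped without CUST_31050, a check added after seeing the data, with dispersant soil at -0.42, -0.37 and -0.61, EC20 at -0.72, -0.61 and -0.63 and EC50 at -0.58, -0.72 and -0.66. At 3 d 84 and 85 members were lower than in dispersant soil at EC20 and EC50, against 52.8% and 48.4% of all kept probes. At 7 d 55 and 57 were, against 49.3% and 45.7%. The tests of single members are given further on.

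The members were divided by where un-spiked soil lay between AgNO3 and the particles, averaged over doses and days. In 61 members AgNO3 lay above un-spiked soil by at most 33.3% of the gap, or below it, and the particles lay below un-spiked soil in all 61. They are called the members with mainly lower particles. AgNO3 itself was below un-spiked soil in 42 of them, with a median of -0.14 over the 61, so in part of this class salt and particles shared a fall. In 15 members AgNO3 lay above un-spiked soil by at least 66.7% of the gap, and 24 members were between. In these 15 the particles had a median difference of 0.01 from un-spiked soil and lay below it in 7. In others of the 15 salt and particles shared a rise, for example 0.98 and 0.42 in CUST_21443. Under SVCD normalization, the study's own method, these counts were 42, 36 and 22, so the split depends on the scaling. The particles were below un-spiked soil in 92 members, AgNO3 was above it in 58 and below it in 42, and particles below with AgNO3 above held in 50. Of all kept probes, the particles were below un-spiked soil in 51.2% and AgNO3 was below it in 47.9%. The median difference from un-spiked soil was -0.52 with particles and 0.09 with AgNO3, against -0.01 and 0.02 over all kept probes.

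**Figure D2:**
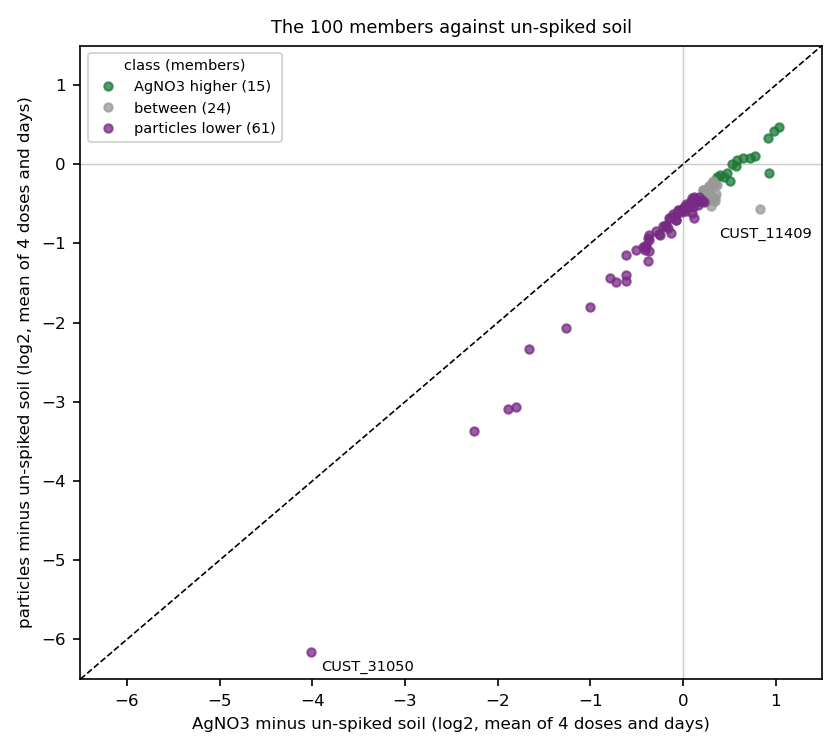
Each point is a member, with the log2 difference of AgNO3 from un-spiked soil on the horizontal axis and that of the coated and non-coated particles on the vertical axis, both averaged over 2 doses and 2 days, and colours for the 3 classes. By the rule all points lie below the dashed line of equal change; most gather near 0 for AgNO3, and 7 members with AgNO3 at or below -1 run along the line to CUST_31050 at -4.02 and -6.16.

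The classes did not share 1 pattern in the arrays outside the rule. In Ag NM300K EC20 against dispersant soil at 3 d, the median log2 difference was -0.79 in the 61 members with mainly lower particles, -0.45 in the 24 between and -0.23 in the 15 with mainly higher AgNO3. In the same order it was -0.47, -0.38 and -0.28 at EC50. At 7 d it was -0.27, 0.08 and 0.29 at EC20 and -0.23, 0.03 and 0.28 at EC50. The differences between classes were not tested. Over the 20 group means, pairs of members correlated with a median r of 0.47 over 4950 pairs, and 655 pairs had an r below 0, as a description of values that share arrays.

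**Figure D3:**
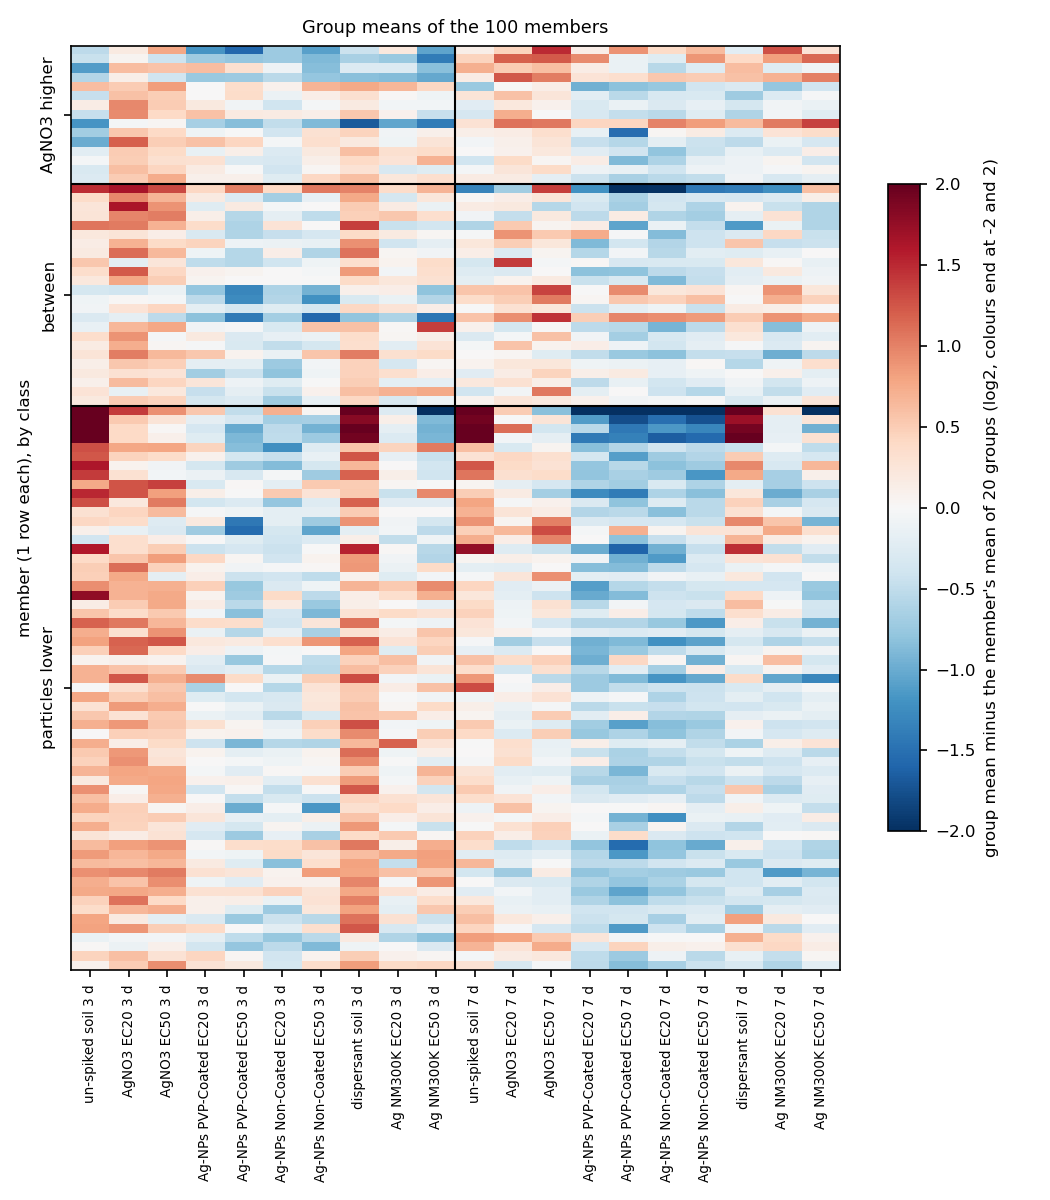
Group mean minus the member's mean over the 20 groups (colour, log2, ending at -2 and 2) for the 100 members (rows, by class and then by mean difference) and the 20 groups (columns, 3 d left and 7 d right of the line). Rows at the top of the largest class are dark red in the 4 control groups and blue with particles and Ag NM300K, while many rows of that class are red over 3 d controls and AgNO3 and pale or blue at 7 d.

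The member with the lowest mean difference was CUST_31050 (read GYUW2K401DLXG6), at -2.15. It was lower with every form of silver than in both controls, and lowest with particles after 7 d and with Ag NM300K at EC50. Its levels in un-spiked soil were 6.04, 7.62 and 7.18 at 3 d and 8.06, 6.56 and 7.49 at 7 d. Dispersant soil gave 5.56, 7.28 and 7.18 at 3 d and 6.26, 6.95 and 7.58 at 7 d. The 12 control arrays thus stayed between 5.56 and 8.06.

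In CUST_31050, AgNO3 at EC20 gave 2.31, 4.83 and 4.99 at 3 d and 2.33, 4.18 and 2.99 at 7 d. At EC50 it gave 4.53, 3.11 and 3.04 at 3 d and 3.33, 2.11 and -0.01 at 7 d. No AgNO3 array reached the lowest control array. The coated particles gave 4.35, 3.00 and 2.22 at EC20 and 1.44, 2.54 and 2.51 at EC50 at 3 d, and the non-coated ones 3.28, 3.48 and 3.33, and 2.10, 3.17 and 2.82. At 3 d these overlapped with AgNO3 of the same dose, except for the coated particles at EC50, which lay below it. After 7 d the coated particles gave -1.51, -0.89 and -0.14 at EC20 and -1.40, -0.84 and -2.57 at EC50, and the non-coated ones -0.35, -0.76 and -0.10, and 1.41, -2.61 and -0.55. At EC20 all particle arrays of 7 d lay below all AgNO3 arrays, while at EC50 1 non-coated array and 1 AgNO3 array crossed. The gap that ranks this member first therefore came mainly from 7 d, with differences from AgNO3 of -4.01 and -3.57 at EC20 against -0.86 and -0.68 at 3 d.

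The Ag NM300K arrays give a test of CUST_31050 that the rule did not use. They read 3.44, 1.34 and 2.36 at EC20 and -2.15, 0.36 and -0.57 at EC50 at 3 d, and 3.23, 2.60 and 3.05, and 2.01, -1.06 and -1.01, at 7 d. None overlapped with the dispersant arrays. Against dispersant soil, CUST_31050 fell by 4.29 ± 0.83 (SE) on the log2 scale at EC20 and 3 d, 19.6-fold (limma, adjusted p = 0.00446). At EC50 and 3 d the fall was 176-fold, with a log2 difference of -7.46 ± 0.83 (limma, adjusted p = 2.02e-07). At 7 d the log2 difference was -3.96 at EC20 (limma, adjusted p = 0.0282) and -6.94 at EC50 (limma, adjusted p = 2.36e-06). The call at EC20 and 7 d was lost when any array other than dispersant replicate 1 was left out, with adjusted p-values up to 0.156. EC50 was lower than EC20 by 3.08 ± 0.59 over both days, which did not pass the threshold (limma, adjusted p = 0.0693).

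**Figure D4:**
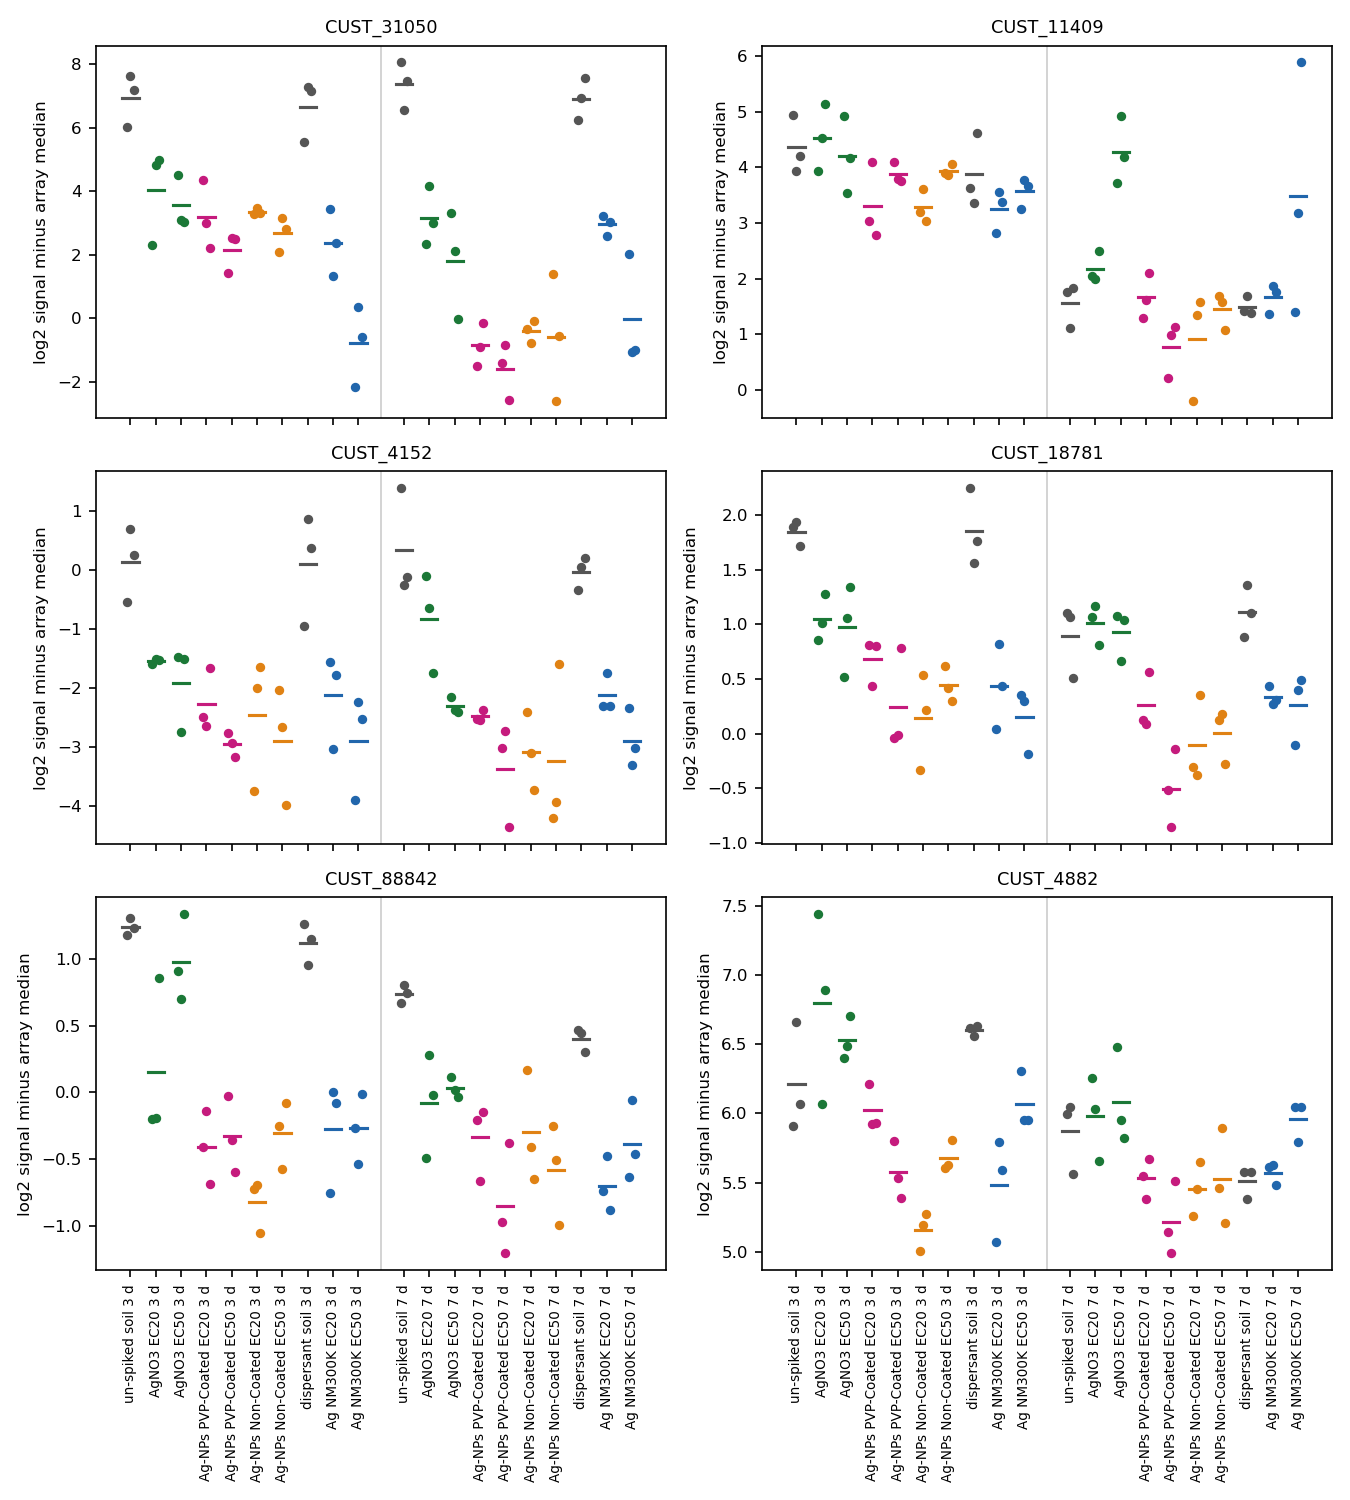
Log2 signal minus the array median (vertical axes, each with its own range) on each array (points, with a bar for the mean of 3) for 6 members, by group (horizontal axis), 3 d left and 7 d right of the line. CUST_31050, CUST_4152, CUST_18781 and CUST_88842 have a control soil as their highest group, CUST_11409 is high at 3 d and in AgNO3 EC50 at 7 d, and CUST_4882 stays between 4.99 and 7.44 on all 60 arrays.

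Over the 20 group means, the kept probes most like CUST_31050 were CUST_18519 (contig12635, r = 0.956), CUST_18145 (contig12921, r = 0.926), CUST_58487 (read GYUW2K401CZTB9, r = 0.926) and the members CUST_13723 (contig16976, r = 0.915) and CUST_4770 (contig00698, r = 0.907). These r values are descriptions over groups that share arrays. CUST_18145 had a mean difference of -1.22 from AgNO3 but was no member, because coated particles at EC50 and 3 d, at 1.11, lay above AgNO3, at 0.80. In CUST_18519 the group means ran from 8.94 to 9.37 in the 4 controls and from 6.70 to 8.14 in the 16 silver groups, so its control and silver groups did not overlap either.

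A set of 7 members lay at or below -1 with AgNO3 against un-spiked soil. They were CUST_31050, CUST_76406 (read GYUW2K402FNSH5, -2.25), CUST_4152 (contig25171, -1.89), CUST_4770 (-1.80), CUST_13723 (-1.66), CUST_3327 (contig25760, -1.26) and CUST_11380 (contig18914), which is named to complete the count. The particles lay further below in each, from -1.80 in CUST_11380 to -6.16 in CUST_31050. All 7 were thus low with both salt and particles, and the rule chose them for the difference in degree.

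CUST_4152 read -0.95, 0.87 and 0.38 in dispersant soil at 3 d and -0.33, 0.06 and 0.20 at 7 d. With Ag NM300K it read -1.55, -3.03 and -1.78 at EC20 and -3.90, -2.23 and -2.53 at EC50 at 3 d, and -2.31, -1.74 and -2.30, and -2.34, -3.31 and -3.02, at 7 d. No array of Ag NM300K reached the dispersant arrays. Against dispersant soil it fell 7.93-fold at EC50 and 3 d (log2 -2.99 ± 0.59, limma, adjusted p = 0.00277) and 7.32-fold at EC50 and 7 d (log2 -2.87, limma, adjusted p = 0.0128). At EC20 it fell 4.66-fold at 3 d (limma, adjusted p = 0.0429), a call lost when any array other than dispersant replicate 1 was left out. At EC20 and 7 d its log2 difference of -2.09 did not pass (limma, adjusted p = 0.118). With normexp background correction none of its 3 calls held, and without dispersant replicate 2 or Ag NM300K EC50 replicate 3 the call at EC50 and 7 d was lost.

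CUST_76406 was likewise lower with Ag NM300K, with levels of -1.30, 0.53 and 0.29 in dispersant soil at 3 d and of -3.65, -2.68 and -2.67 with Ag NM300K EC50. It fell 7.16-fold there (limma, adjusted p = 0.0357), and this call too was lost when any array other than dispersant replicate 1 was left out, with normexp, with no filter and with the scan day as a block. CUST_4770 read -0.37, 1.64 and 1.74 in dispersant soil and -2.37, -1.06 and -1.67 with Ag NM300K EC50 at 3 d, a log2 difference of -2.70 that did not pass (limma, adjusted p = 0.0513). CUST_13723 and CUST_3327 passed in none of the 4 Ag NM300K comparisons, with log2 differences between -2.10 and -1.52 and between -1.29 and -0.30. In CUST_4770, CUST_76406 and CUST_3327, AgNO3 EC20 at 7 d spread widely, for example -2.60, 1.28 and -1.16 in CUST_4770.

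CUST_17546 (contig13495), with a mean difference of -0.86, differed from un-spiked soil by -1.48 with particles but was called in no Ag NM300K comparison. It read -1.06, 1.62 and -0.41 in dispersant soil at 3 d, -0.45, 0.30 and -0.05 with EC20 and -0.08, 1.13 and 0.54 with EC50, all overlapping. The log2 differences from dispersant soil were -0.11 and 0.48 at 3 d and 0.40 and -0.06 at 7 d, and none passed (limma, adjusted p = 0.822 to 0.975).

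CUST_11409 (contig19057), second in mean difference at -1.40, behaved otherwise. It was high at 3 d in all groups and low at 7 d in most, and its gap came mainly from AgNO3 EC50 at 7 d. At 3 d its group means lay between 3.26 and 4.53. At 7 d un-spiked soil gave 1.76, 1.11 and 1.83, dispersant soil 1.42, 1.69 and 1.39, and AgNO3 EC20 2.05, 2.00 and 2.50, whereas AgNO3 EC50 gave 3.72, 4.92 and 4.19. The 12 particle arrays of 7 d lay between -0.20 and 2.11, all below AgNO3 EC50. Ag NM300K EC50 at 7 d gave 1.40, 3.18 and 5.89, so that its replicates spread from the level of dispersant soil to above all AgNO3 EC50 arrays.

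In both control soils CUST_11409 fell between 3 and 7 d, 6.95-fold in un-spiked soil (log2 -2.80 ± 0.55, limma, adjusted p = 0.00151) and 5.20-fold in dispersant soil (log2 -2.38 ± 0.55, limma, adjusted p = 0.00365). Its Ag NM300K differences did not pass, the highest being 1.99 at EC50 and 7 d (limma, adjusted p = 0.0613).

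CUST_18781 (contig12382) and CUST_88842 (read GYUW2K401DKAUB) kept both calls with Ag NM300K at 3 d under all 11 alternatives that fit all groups and with any array left out. Among the other members named by the rule, CUST_31050 did so, in 3 of its 4 calls. CUST_18781 read 2.24, 1.56 and 1.76 in dispersant soil at 3 d, 0.05, 0.82 and 0.43 with Ag NM300K EC20 and 0.35, 0.30 and -0.19 with EC50. It fell 2.68-fold (log2 -1.42 ± 0.25, limma, adjusted p = 0.00252) and 3.26-fold (log2 -1.70 ± 0.25, limma, adjusted p = 4.6e-05). At 7 d its log2 differences of -0.78 and -0.85 did not pass (limma, adjusted p = 0.187 and 0.0836), with dispersant soil at 0.88, 1.36 and 1.11 and all 6 Ag NM300K arrays between -0.11 and 0.49. In un-spiked soil the probe fell 1.94-fold from 1.89, 1.94 and 1.72 at 3 d to 1.10, 1.06 and 0.51 at 7 d (limma, adjusted p = 0.0137), a call lost without un-spiked replicate 2 of 3 d or replicate 3 of 7 d.

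CUST_88842 read 1.26, 0.96 and 1.15 in dispersant soil at 3 d, -0.75, 0.00 and -0.08 with Ag NM300K EC20 and -0.27, -0.54 and -0.01 with EC50. It fell 2.65-fold at EC20 (limma, adjusted p = 0.00252) and 2.63-fold at EC50 (limma, adjusted p = 0.00102), with 6 of 6 arrays below the controls. At 7 d dispersant soil gave 0.47, 0.45 and 0.30 and Ag NM300K EC20 -0.74, -0.48 and -0.88. This 2.15-fold fall passed (limma, adjusted p = 0.0391) but was lost with any of the 6 arrays left out, with the slide or the scan day as a fixed block, with normexp and with no filter. In the arrays of the rule, AgNO3 at 3 d gave -0.20, -0.19 and 0.86 at EC20 and 0.91, 0.70 and 1.34 at EC50, and all 12 particle arrays of 3 d lay between -1.06 and -0.03. AgNO3 EC20 thus overlapped with the particles and EC50 did not.

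CUST_20206 (contig11049) was called with Ag NM300K EC50 at both days. It read 1.37, 0.48 and 1.10 in dispersant soil and -0.01, -0.08 and -1.28 with EC50 at 3 d, and fell 2.72-fold (limma, adjusted p = 0.0392). At 7 d it read -0.12, 0.06 and 0.24 and then -1.94, -2.08 and -0.88, a 3.24-fold fall (limma, adjusted p = 0.0212). Each call was lost with 4 of the 6 arrays left out in turn, all but dispersant replicate 2 and Ag NM300K replicate 1 at 3 d, and all but dispersant replicate 1 and Ag NM300K replicate 3 at 7 d. Both were lost with normexp and with no filter, and that at 3 d also with the slide or the scan day as a fixed block.

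Among the 15 members with mainly higher AgNO3, CUST_16500 (contig01677) had the lowest mean difference, -1.04, and was among the 2 dimmest members. All arrays of coated and non-coated particles at EC20 and 3 d were not well above background in it, and 1 of 3 AgNO3 arrays was. Only bounds can be given there, and they take the AgNO3 mean as measured. On that basis AgNO3 EC20 was at least 1.31-fold brighter than coated and at least 1.41-fold brighter than non-coated particles. At EC50 and 3 d, where 2 of 3 AgNO3 arrays were well above background, AgNO3 was at least 2.05-fold brighter than coated particles. For a bound, the brighter group's mean was compared with the dimmest signal that still counted as well above background on the arrays of the dimmer group. The brighter mean itself included arrays not well above background, so these bounds are not firm lower limits. CUST_60516 (read GYUW2K402IJYI6), the other of the 2, was at least 1.48-fold and 1.35-fold brighter with AgNO3 EC50 than with coated and non-coated particles at 3 d.

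CUST_72343 (read GYUW2K401BXIRC) lay above un-spiked soil by 0.51 with AgNO3 and below it by a difference of -0.21 with particles. Its un-spiked levels at 7 d were 5.98, 6.22 and 6.44, and AgNO3 gave 7.08, 6.82 and 6.96 at EC20 and 6.69, 7.56 and 6.72 at EC50, with no overlap. Single arrays set its particle means at 7 d: coated EC50 gave 6.95, 3.98 and 5.97, and non-coated EC20 gave 3.18, 6.97 and 6.43. CUST_81503 (read GYUW2K401A0WEE) lay 0.78 above un-spiked soil with AgNO3 and 0.10 above it with particles. It rose 3.55-fold between 3 and 7 d in un-spiked soil (limma, adjusted p = 0.00875), from -4.51, -3.69 and -3.04 to -1.68, -1.58 and -2.50, and the call was lost without un-spiked replicate 1 of 3 d or replicate 2 of 7 d, with the slide as a fixed block and with normexp. Of the un-spiked arrays, 1 of 3 at 3 d and 2 of 3 at 7 d were well above background for it. None of the 15 members of this class was called in the 4 Ag NM300K comparisons.

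Across the list, the tests against dispersant soil addressed whether the members were lower with Ag NM300K than in its control without silver. They did not set Ag NM300K against AgNO3, so a member lowered by both salt and particles can also be called. A call is an adjusted p below 0.05 over all 23179 probes in a limma model with a mean per group over 60 arrays. With Ag NM300K EC20 at 3 d, 12 members fell and 0 rose, where 0.764% of all probes fell and 0.492% rose. With EC50 at 3 d, 11 members fell and 0 rose, against 0.742% and 0.47% of all probes. At 7 d, 2 members fell with EC20 and 0 rose, against 0.155% and 0.0733%. With EC50 at 7 d, 3 members fell and 0 rose, against 0.401% and 0.475%. SVCD normalization gave 3 lower and 2 higher there, beside 97 and 1233 of all 23179 probes.

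At least 1 of these 4 calls was made for 15 members, against 1.56% of all probes, and all 15 were called at 3 d and 4 of them at 7 d as well. With AgNO3, averaged over doses and days, all but CUST_4882 (0.30) and CUST_14448 (0.06) of the 15 also lay below un-spiked soil. At 3 d alone, AgNO3 lay above un-spiked soil at both doses in CUST_4882, CUST_20206, CUST_82614 and CUST_1180. It lay below at both doses in CUST_31050, CUST_4152, CUST_76406, CUST_18781, CUST_88842 and CUST_27553, and on either side in the others. The tests were made against dispersant soil, so these calls do not set the particles apart from the salt. Before adjustment, 36 members were lower and 0 higher at p below 0.05 with EC20 at 3 d (7.37% and 5.49% of all probes), and 29 and 0 with EC50 (6.39% and 5.98%). At 7 d the counts were 14 lower and 2 higher with EC20 (4.82% and 4.89% of all probes), and 13 and 3 with EC50 (5.72% and 8.15%). The median log2 difference of the members at 3 d was -0.51 at EC20 and -0.40 at EC50, against -0.02 and 0.01 over all probes. At 7 d it was -0.14 at EC20 and -0.11 at EC50, against 0.01 and 0.04, and under SVCD normalization the median at EC50 and 7 d was 0.03 where that of all probes was 0.18.

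The calls rest on the spread pooled over the 20 groups. In a limma model of only the groups compared, 0 members were called in both comparisons at 3 d and in EC50 at 7 d and 1 in EC20 at 7 d, with 32 and 25 members lower and 0 higher before adjustment at 3 d, and the methods' t-test called 0 in all 4. Of all probes, the limma model of the compared groups called 0 in both comparisons at 3 d, 8 in EC20 and 2 in EC50 at 7 d. Within 1 scan day that held both groups, the members' median was -0.51 at EC20 and -0.55 at EC50 at 3 d, and within each of 2 scan days at 7 d it was -0.25 and -0.15 at EC20 and -0.22 and -0.16 at EC50.

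**Figure D5:**
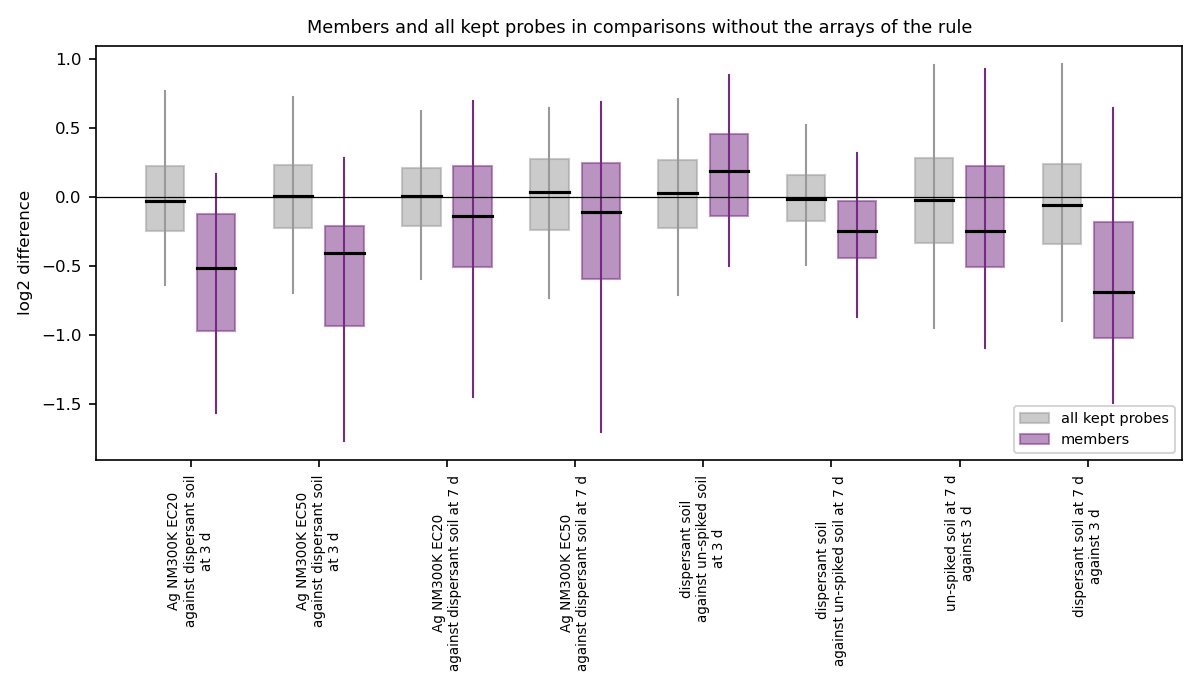
Log2 differences (vertical axis) of all kept probes (grey) and of the 100 members (purple) in 8 comparisons made only of control and Ag NM300K arrays (horizontal axis). Boxes span the quartiles, black bars mark medians and lines run from the 5th to the 95th percentile; the members' median is lowest, -0.69, between 7 and 3 d in dispersant soil and is -0.51 and -0.40 with Ag NM300K at 3 d.

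The remaining members called at 3 d at both doses were CUST_58661 (read GYUW2K402H7GK1), CUST_14448 (contig16365), CUST_27553 (read GYUW2K402IQOV9) and CUST_13829 (contig16892), which are named to complete the count. CUST_58661 fell 2.54-fold at EC20 and 2.60-fold at EC50, and CUST_14448 fell 2.30-fold and 2.01-fold. CUST_27553 fell 2.24-fold and 3.05-fold, and CUST_13829 fell 2.93-fold and 2.63-fold. At EC20 alone CUST_4882, CUST_80653, CUST_16388 and CUST_82614 fell, by between 2.00-fold and 2.42-fold. At EC50 alone CUST_76406, CUST_20206 and CUST_1180 (contig00277) fell at 3 d, the last 2.01-fold (limma, adjusted p = 0.0174). The call of CUST_1180 was lost with 4 of 6 arrays left out in turn (dispersant replicates 1 and 3, Ag NM300K replicates 2 and 3), with normexp and with no filter, with adjusted p-values up to 0.856 (limma). Of the 15, 14 belonged to the class with mainly lower particles and 1, CUST_4882, lay between.

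CUST_5367 (contig24222), the third of the class between, passed in none of the 4 comparisons, with log2 differences of -0.67 to -0.35. In it 1 array set AgNO3 EC20 at 3 d, with levels of 0.83, -1.93 and -2.58. CUST_4882 (contig24581) was among the 3 brightest members. It read 6.61, 6.56 and 6.63 in dispersant soil at 3 d and 5.07, 5.79 and 5.59 with Ag NM300K EC20, a 2.17-fold fall (log2 -1.11 ± 0.23, limma, adjusted p = 0.0071). With EC50 it read 6.30, 5.95 and 5.95, and the log2 difference of -0.53 did not pass (limma, adjusted p = 0.30). At 7 d dispersant soil gave 5.57, 5.38 and 5.58 and both doses of Ag NM300K gave 5.48 to 6.05. The call at EC20 was lost without Ag NM300K EC20 replicate 1, with the slide as a fixed block, with no filter and with normexp.

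Set against AgNO3 of the same dose and day, Ag NM300K lay lower in 82 and 84 members at 3 d, EC20 and EC50, and in 76 and 88 at 7 d. Of all kept probes, 53.2%, 49.6%, 54.4% and 44.7% lay lower in the same order. The members' median differences were -0.56, -0.39, -0.29 and -0.27. The AgNO3 arrays chose the members, and Ag NM300K also brought its dispersant, which cannot be told apart from the particle here, so these values have no test. The median differences of non-coated from coated particles over the members were -0.16 and 0.14 at 3 d and -0.04 and 0.08 at 7 d, EC20 and EC50 in that order. Single members differed by -1.67 to 1.68. The rule required both materials to lie below the same AgNO3 groups, so nothing is read from how close they were.

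The dispersant alone changed no member past the threshold. Against un-spiked soil at 3 d, 0 members rose and 0 fell, where 0.298% and 0.0604% of all probes did, with 13 members higher and 1 lower before adjustment (7.83% and 4.01% of all probes). At 7 d 0 members and 0% of all probes were called in each direction in limma, with 0 members higher and 9 lower before adjustment (1.74% and 1.83% of all probes). The members' median difference was 0.19 at 3 d and -0.24 at 7 d, against 0.03 and -0.01. Under SVCD normalization, which shifts the median of all probes by 0.185 in the comparison at 3 d, 10 members were called there, all higher, as were 1264 of the 23179 probes. Without dispersant replicate 2, 3 members were called at 3 d.

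Time was the comparison with most calls in dispersant soil. There 20 members fell and 3 rose between 3 and 7 d, against 4.51% and 4.66% of all probes, and the median log2 difference of the members was -0.69 against -0.06. The falls ran from 1.65-fold in CUST_34361 (read GYUW2K401BRUA7) to 5.74-fold in CUST_2405 (contig26409). They included CUST_11409, CUST_4882 (2.13-fold) and the last member inside the limit, CUST_19349 (2.24-fold, limma, adjusted p = 0.00194). The rises were CUST_21443 (contig09932, 4.96-fold), CUST_19488 (contig11738, 2.70-fold) and CUST_75832 (read GYUW2K402J0810, 2.46-fold). The rise of CUST_21443 rested on 1 array at 3 d, with levels of 2.32, 5.54 and 6.85 against 7.06, 7.30 and 7.27. It was lost without dispersant replicate 1 of 3 d and with the slide as a fixed block. The comparison and the Ag NM300K comparisons at 3 d share the 3 dispersant arrays of 3 d, on which the members read high. In a limma model of only the 2 groups 0 members and 60 of all 23179 probes were called, with 40 members lower and 4 higher before adjustment.

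In un-spiked soil 5 members fell and 3 rose between 3 and 7 d, against 2.18% and 4.9% of all probes, with a median difference of -0.24 against -0.02. The members that fell were CUST_11409, CUST_18781, CUST_20229 (contig02537, 2.55-fold), CUST_4626 (contig02841, 2.11-fold) and CUST_5129 (contig07711, 2.43-fold). Those that rose were CUST_3749 (contig04280, 2.16-fold), CUST_81503 and CUST_1180 (1.94-fold). The rise of CUST_1180 was lost with the slide as a fixed block, with normexp, with no filter and without un-spiked replicate 3 of 3 d or replicate 1 of 7 d. Of the falls, CUST_11409 and CUST_5129 were also called in dispersant soil, 2 of 5 and 2 of 20. Under SVCD normalization, which shifts all probes by 0.259 here, 7 members rose and 4 fell, beside 4053 and 235 of the 23179 probes, and the members' median was 0.02. Within the 1 scan day that held both times, the median was 0.01. A limma model of only the 2 groups called 2 members, beside 376 of the 23179 probes. The difference in time course between the control soils was not tested.

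In the silver groups of the rule, the members' median difference between 7 and 3 d, averaged over doses, was -0.37 with AgNO3, -0.41 with coated and -0.30 with non-coated particles, given with no test. The extremes were -3.90 and -3.52 with coated and non-coated particles, and 1.89 and 2.02. Dose moved the members less: the median of EC50 minus EC20 was -0.02 with AgNO3, -0.14 with coated and 0.14 with non-coated particles. With Ag NM300K, 0 members were called between doses, 0% of all probes in each direction in limma, with 8 higher and 3 lower before adjustment (4.48% and 2.31% of all probes).

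The difference of Ag NM300K from dispersant soil, averaged over both doses, changed between 3 and 7 d in 4 members. In all 4 this difference was higher at 7 d, against 1.32% of all probes called higher and 1.16% lower. The median change was 0.37 against 0.03 over all probes, and 19 members were higher and 0 lower before adjustment (9.0% and 6.96% of all probes). The 4 members were CUST_4882, CUST_2405, CUST_60140 (read GYUW2K401EEIFK) and CUST_82614 (read GYUW2K401BZ8NJ), and each also fell in dispersant soil between 3 and 7 d, a comparison that shares the dispersant arrays. CUST_2405, for example, had log2 differences from dispersant soil of -1.83 and -1.75 at 3 d and of 1.003 and 0.54 at 7 d, none of which passed alone (limma, adjusted p = 0.081 to 0.713).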

How the data were processed

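The deposited files hold the scanner output of 60 one-colour arrays, made with Agilent Feature Extraction 10.7.3.1 per the file headers. Its processed signal, an intensity that the authors' software corrected for background within each array, was used, with no normalization between arrays in the files. Detection and outlier flags of the same files were used as given. The deposited value table repeats these signals and was not used. Control spots were left out, log2 signals were centred on the array median over the kept probes, and spots flagged as outliers were set missing in the tests.

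Tests used limma 3.58.1 in R 4.3.3, with 20 group means over 60 arrays, two-sided, with Benjamini-Hochberg adjustment over 23179 probes and a false discovery rate of 5%. All adjusted p-values come from limma. The procedure was tested on simulated data for Ag NM300K EC50 against dispersant soil at 3 d. The simulated noise held no slide effect, so that test does not cover correlation between arrays of a slide. Tests were confined to the 10 comparisons of Ag NM300K and control arrays, whose differences the selection did not use, although all 60 arrays entered its filter on detection. These arrays shared slides with arrays that the rule used. Arrays of 1 slide were correlated beyond their group means, with a consensus r of 0.38, so the comparisons are not fully independent of the selection. Replicates are biological replicates per the labels. Their number, 3 per group, limits the precision. Samples were grouped by title and exposure. The deviations of same-numbered arrays correlated above 0.1 in every pair only between the dispersant groups of 3 and 7 d (r of 0.159, 0.249 and 0.436), and the fit with the replicate number as a block called 24 members there, against 23.

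The alternatives were SVCD (which centres groups on probes without variation, here 6585 of 22880), Quantile and 75th percentile normalization, normexp (offset 50), other filters, outlier spots kept, slide, scan day and replicate blocks, the compared groups alone, the methods' t-test and leaving out each array. The t-test was not run for the 2 comparisons that combine several groups. Probes named in the text were the 10 members with the lowest mean difference, those next to the limit of 100, the leading 3 of each class, the 5 with most Ag NM300K calls, the 3 brightest and 2 dimmest, and the 5 probes most like the first member. Others complete a count and were named after their values were seen. The members, lists and comparisons were chosen with earlier results of these data known. Gene lists were not used, since probes were not paired with gene names here.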

Additional observations from a re-analysis of the deposited data

Results flagged for a closer look

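The test of whether the 3 d and 7 d effects of Ag NM300K are unequal called 4 members (limma, adjusted p below the false discovery rate of 5%). In all 4 the difference from dispersant soil, not the level itself, was called higher at 7 d, against 1.32% of all probes. The log2 change was 1.08 in CUST_4882 (limma, adjusted p = 0.03), 2.56 in CUST_2405 (limma, adjusted p = 0.0308), 1.29 in CUST_60140 (limma, adjusted p = 0.0268) and 1.14 in CUST_82614 (limma, adjusted p = 0.0424). The dispersant arrays enter both sides of this comparison, and all 4 members also fell between 3 and 7 d in dispersant soil. With Ag NM300K EC20, CUST_2405 had group means of -0.56 at 3 d and -0.25 at 7 d. With EC50 they were -0.48 and -0.71, and in dispersant soil 1.27 and -1.25. The part of the fall in dispersant soil in the change was not tested. The call of CUST_4882 was lost under Quantile normalization, with normexp, with no filter and in 4 of 18 fits with 1 array left out. Groups held 3 arrays, so single arrays were not tested as outliers.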

How the results depend on the processing

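The counts of members called were 12 and 11 for Ag NM300K EC20 and EC50 at 3 d, 2 and 3 at 7 d, 8 and 23 for time in un-spiked and dispersant soil, 4 for the change of the Ag NM300K effect, and 0 for the dispersant at both days and for dose. With normexp background correction the first 7 became 5, 6, 1, 1, 2, 13 and 0, and with no filter the counts at 3 d became 5 and 5, EC20 at 7 d 0, time 2 and 9 and the change 0. Of all 23179 probes, normexp called 21, 84, 10, 10, 234, 755 and 57. With no filter, the same comparisons called 30, 53, 6, 667, 809 and 10 of 43750 probes. When limma was fitted to only the groups being compared, they were 0, 0, 1, 0, 2, 0 and 0, and the methods' t-test called 0 in the first 6. Over all probes the same fits called 0, 0, 8, 2, 376, 60 and 7, and the t-test 0, 0, 1, 0, 0 and 0. SVCD normalization gave 5 for EC50 at 7 d, 10 for the dispersant at 3 d and 7 for the change, after moving the median of all probes by 0.140, 0.185 and 0.091. It called 1233 probes higher and 97 lower for EC50 at 7 d, 1264 and 26 for the dispersant at 3 d, 4053 and 235 for time in un-spiked soil, 1574 and 784 in dispersant soil, 837 and 265 for the change, and 118 and 305 for EC50 at 3 d. With the slide as a fixed block EC20 at 7 d had 4 calls, time in un-spiked soil 5 and the change 9, beside 463, 709 and 1624 of all 23179 probes. With the slide as a random block EC20 and EC50 at 7 d had 8 and 7, time in dispersant soil 35, the change 11 and dose 1. Of all 23179 probes, that fit called 549, 848, 2968, 2070 and 2 in the same order. With the scan day as a block EC20 at 7 d had 1, beside 179 of all probes. Quantile normalization and the filter on probes well above background each gave 1 for dose, beside 3 and 1 of all probes.

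Of the 100 members the rule selected 27 again with normexp, 7 with no filter and 29 with the slide as a fixed block. It selected 48 of the 52 left by the filter on probes well above background, but 70 to 100 under the others. All 8 differences stayed below 0 in 45 members with normexp, 51 with the slide as a fixed block and 70 with SVCD. The mean difference stayed below 0 in all members measured, but they were chosen for it, and its median was -0.26 with normexp. The members mainly higher with AgNO3 numbered 36 under SVCD, 27 with the slide as a fixed block and 9 after the filter, against 15. With the replicate number as a block the counts were 12, 11, 2, 3, 9, 24 and 4, with 0 for the dispersant and dose, and no count moved by over 1.5 times. The first 7 stood beside 292, 280, 56, 204, 1712, 2128 and 591 of all probes. The cause of these changes was not tested.

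With 1 array left out, the counts ran from 6 (without Ag NM300K EC20 replicate 1) to 18 (without dispersant replicate 1) for EC20 at 3 d and from 9 to 10 for EC50. At 7 d they ran from 0 to 1 for EC20, lowered by every array, and from 1 (without dispersant replicate 2) to 3 for EC50. The dispersant at 3 d gave 0 to 3 and at 7 d 0 to 0. Time in un-spiked soil gave 3 to 6, lowered over 1.5 times by every array but replicate 1 of 3 d, and in dispersant soil 16 to 24. The change gave 0 (without dispersant 7 d replicate 2) to 6, with 1 without Ag NM300K EC20 3 d replicate 1 and 2 without dispersant 7 d replicate 1 or 3, Ag NM300K EC20 7 d replicate 1 or EC50 7 d replicate 3. Dose gave 0 to 1 (without Ag NM300K EC20 3 d replicate 2 or EC50 7 d replicate 1). The list kept 72 to 96 members, and 13 to 22 were mainly higher with AgNO3. Of the 10 median differences, SVCD moved 1 and normexp 3 by more than the spread between arrays. Precision was not compared between the 48 members not well above background on all arrays and the other members. Among these 48, the pooled standard deviation within groups varied, for example 0.98 in CUST_68553 and 0.36 in CUST_50036. The largest of any member, 1.06, was that of CUST_31050, which was well above background on all 60 arrays.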
